A study of Mus musculus with 6 samples.

Results

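Type I interferon-stimulated genes are the genes that cells switch on when interferon alpha or beta reaches them. The 31 genes described here were taken by symbol from a published table of fragment counts. All 31 were among its 23420 genes, and 30 of them had enough counts to be tested among the 10352 genes tested. The table holds 6 RNA-seq libraries of regulatory T cells (Tregs), the FoxP3-positive CD4 T cells that restrain other immune cells. The cells were sorted from T11 tumors, a claudin-low model of triple-negative breast cancer. These grew in FoxP3-GFP reporter mice of the BALB/c strain after injection of 10000 tumor cells. Mice of the untreated group (libraries 1, 2 and 3) received no antibody. Mice of the anti-PD-1 group (libraries 4, 5 and 6) received 200 µg of the antibody J43 against the checkpoint receptor PD-1 into the peritoneum, 2 times a week. In both groups tumors were taken at an area of 150 mm2, and sorted GFP-positive cells were more than 90% pure. GFP marks FoxP3-expressing cells of these mice, so the sort was aimed at Tregs and not at the other T cells of the tumor. The labels do not state the age of the mice, the length of treatment or whether a library came from 1 mouse or from several. The p-values set the difference between groups against variation between these libraries, and part of that variation may be technical.

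Interferon alpha and beta bind a shared receptor, IFNAR1 with IFNAR2, whose kinases JAK1 and TYK2 pass the signal on by phosphorylation. The complex ISGF3, which contains STAT2 and IRF9, then binds a DNA element called the interferon-stimulated response element (ISRE) in the promoters of its targets. The products sense viral RNA, block translation, degrade RNA and limit the response. In tumors the same genes serve as a readout of interferon reaching a cell, and interferon gamma induces many of them too.

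The defining Treg marker was present in all libraries. Foxp3 was measured at 461, 438 and 454 CPM (counts scaled to a common library size) in untreated 1, 2 and 3, and at 544, 563 and 462 CPM in anti-PD-1 4, 5 and 6. Pdcd1, which encodes the target of the antibody, was at 78.5, 77.9 and 90.6 CPM untreated and at 39.5, 62.4 and 103 CPM after anti-PD-1. Total counts ran from 4766533 to 6686774 per library, and each untreated library was deeper than each anti-PD-1 library. The ribosomal RNA gene Rn45s took 21.4% to 25.1% of counts, with the highest share in anti-PD-1 6.

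Promoters of several members hold the letters of the ISRE core, and they are shown because this element ties such genes to ISGF3. A promoter window (250 bases before to 50 after a start site, RefSeq, build GRCm38.p6) was found for 22 of the 31 genes, in 27 windows. No entry was matched for Dhx58, Zbp1, Oas2, Mx1, Mx2, Usp18, Ifi27l2a, Rtp4 and Parp14. The ISRE core was searched as GAAANNGAA and, for the other strand, as TTCNNTTTC. At least 1 core stood in 13 of the 27 windows (48.1%), belonging to 12 of the 22 genes, against 2806 of all 32817 windows of that length (8.55%). The gamma-activated site, searched as TTCNNNGAA (the same on both strands, and free to overlap the core), stood in 5 of 27 windows (18.5%) against 8.29% of all windows. A match is a run of letters and not a measured binding site. The stretches below run 5′ to 3′ on the strand of the gene, end at or before the start site, and show core matches in capitals.
Ifih1: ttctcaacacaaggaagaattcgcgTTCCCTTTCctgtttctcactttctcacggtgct
Bst2: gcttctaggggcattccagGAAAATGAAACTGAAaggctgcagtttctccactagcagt
Rsad2: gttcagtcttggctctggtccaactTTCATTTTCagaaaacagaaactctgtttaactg
Trim30a: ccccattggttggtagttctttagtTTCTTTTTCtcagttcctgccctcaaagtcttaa
Ddx60: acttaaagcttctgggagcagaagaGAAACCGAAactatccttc
Isg15: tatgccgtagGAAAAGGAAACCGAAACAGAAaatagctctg
Ifit3: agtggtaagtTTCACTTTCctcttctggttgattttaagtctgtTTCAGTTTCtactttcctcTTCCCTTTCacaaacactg
I830012O16Rik: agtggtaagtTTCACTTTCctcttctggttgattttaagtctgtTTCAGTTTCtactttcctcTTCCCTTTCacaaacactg

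These stretches lie at chr2:62646334-62646392 (Ifih1, minus strand), chr8:71537563-71537621 (Bst2, minus), chr12:26456538-26456596 (Rsad2, minus), chr7:104465195-104465253 (Trim30a, minus), chr8:61928043-61928086 (Ddx60, plus), chr4:156200866-156200906 (Isg15, minus), chr19:34583364-34583445 (Ifit3, plus) and chr19:34607760-34607841 (I830012O16Rik, plus). Isg15, Ifit3 and I830012O16Rik were added to the stretches after their values had been seen. In Isg15 a run of 3 overlapping cores began 78 bases before the start. Ifit3 and its neighbour I830012O16Rik, which RefSeq lists as Ifit3b, were identical over 82 of 82 bases with 3 cores each. Their transcripts are near copies as well: 51.2% of the 50-base words of Ifit3 and 44.95% of those of I830012O16Rik occur in another gene, so the division of counts between them is uncertain. Herc6 (23.8% of its words shared with Gm45193) and Rtp4 (13.6% with Gm45338) share words to a lesser degree. The words came from GENCODE transcripts, another annotation than that of the counts. Whether these partners overlap the same locus, and so whether counts were divided, was not tested.

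Levels of the members spanned a wide range in these Tregs. Compared per length, as the mean CPM per kb of exons over the 6 libraries, Ifi27l2a, which encodes a small interferon-induced protein, was highest at 182. Trim30a, a TRIM protein gene, followed at 62.1, then Zbp1, a sensor of Z-form nucleic acid that can start necroptosis, at 47.1, and Parp14, an ADP-ribosyltransferase gene, at 42.2 CPM per kb. The 2 lowest were the OAS-like genes Oasl1 (1.15 CPM per kb) and Oasl2 (0.486 CPM per kb). Next above them came Oas2 (1.62 CPM per kb), Mx2 (3.08 CPM per kb) and Ifi44 (4.68 CPM per kb). The lowest library of Ifi27l2a (152 CPM per kb) stood above the highest of Trim30a (76.0 CPM per kb).

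**Figure D1:**
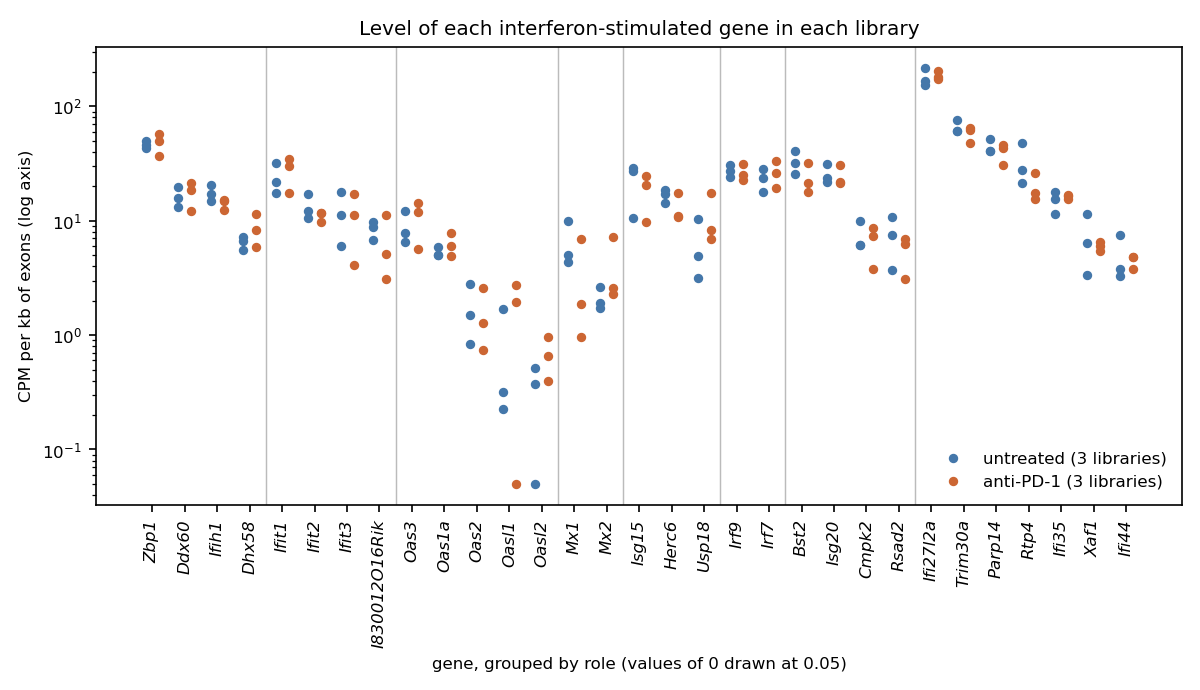
Level of each of the 31 genes in each library, as CPM per kb of exons on a log axis, with untreated libraries in blue and anti-PD-1 libraries in orange, grouped by role. Values of 0 (Oasl1 in anti-PD-1 4, Oasl2 in untreated 2) are drawn at 0.05, and the colours overlap for each gene.

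No member passed the test for a difference between anti-PD-1 and untreated Tregs. By edgeR's quasi-likelihood test, with p adjusted by Benjamini-Hochberg across the 10352 tested genes, 0 of 30 were higher and 0 of 30 were lower at an adjusted p under 0.05. Over all tested genes 3 were higher (0.029%: Klf2, Jun and Rhob) and 0 lower (0%). Limma-voom also called 0 of 30 members, and DESeq2 called 0 of the 13 to which it gave an adjusted p (the other 17 were left without one). Adjusted p of the members ran from 0.551 to 0.978. At an unadjusted p under 0.05, 0 members were higher and 1 was lower, against 438 (4.23%) and 421 (4.07%) of all tested genes. Log2 fold changes were below 0 for 18 members (60.0%) and above 0 for 12, against 49.9% of all tested genes below 0. Their median was -0.13, against 0.00 over all tested genes, and they ran from -1.03 (Mx1) to 1.07 (Oasl1). Groups overlapped for each of the 30 members, while among all tested genes 743 (7.18%) were higher without overlap and 667 (6.44%) lower without overlap. In bulk samples such as these, fewer cells of a type and less RNA per cell cannot be told apart.

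**Figure D2:**
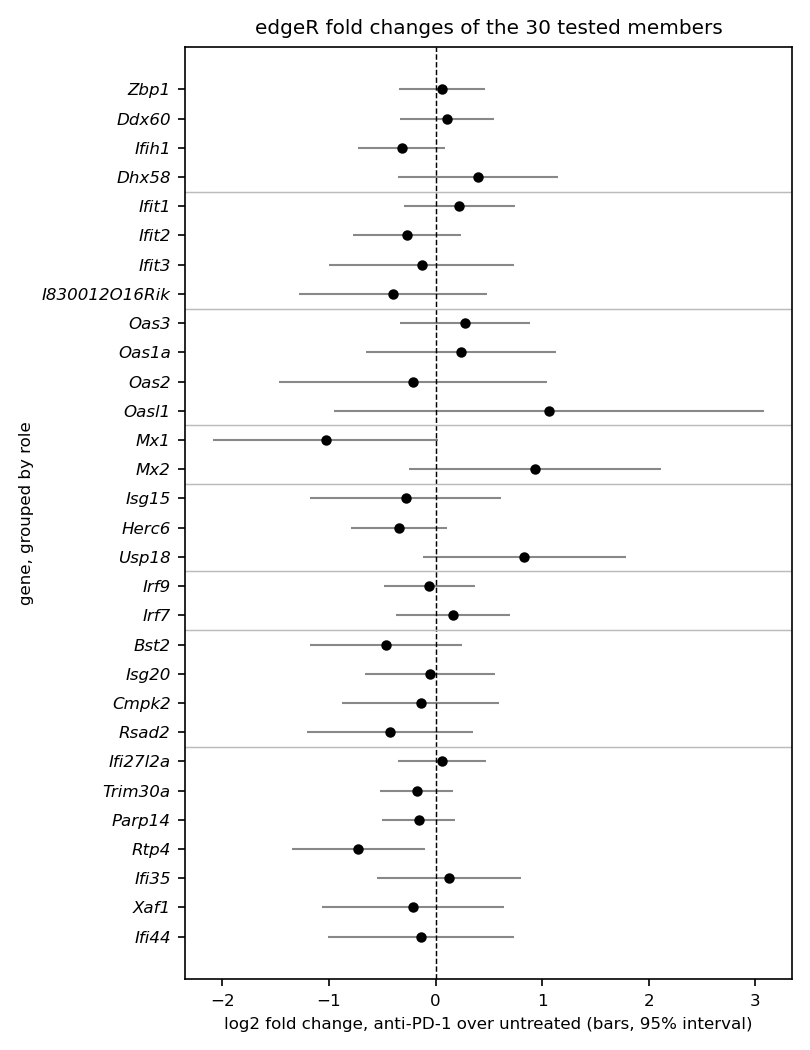
Log2 fold change of each of the 30 tested members, anti-PD-1 over untreated (points), with the 95% interval from the edgeR fit (bars), grouped by role. The interval of Rtp4 lies below 0 before adjustment over all genes, and those of the other 29 members include 0.

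Rtp4 (chr16:23609919-23614222, mm10), which encodes a receptor transporter protein that restricts viruses, had the smallest p of the members. It was measured at 74.8, 33.5 and 43.4 CPM in untreated 1, 2 and 3 and at 27.4, 41.1 and 24.4 CPM in anti-PD-1 4, 5 and 6. Anti-PD-1 5 lay above untreated 2, so the groups overlapped, and untreated 1 stood well above the rest. The log2 fold change was -0.72 ± 0.30 (SE), with a 95% interval of -1.35 to -0.10, an unadjusted p of 0.0252 and an adjusted p of 0.551. Without untreated 1 it was -0.32.

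The variation ran between libraries of the same group. A score was formed for each library as the mean over the 30 tested members of log2 CPM minus the mean of the gene over the 6 libraries. It was 0.11, 0.21 and -0.22 in untreated 1, 2 and 3, and -0.14, 0.39 and -0.35 in anti-PD-1 4, 5 and 6. The highest and the lowest of the 6 scores were thus both anti-PD-1 libraries, and the untreated scores lay between them. Group means were 0.04 ± 0.23 (SD, n = 3) untreated and -0.04 ± 0.38 (SD, n = 3) after anti-PD-1. Their difference of -0.07 was smaller than the pooled SD of 0.31. Summed over the members, expression was 1744, 1759 and 1433 CPM untreated, and 1586, 1823 and 1199 CPM after anti-PD-1.

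**Figure D3:**
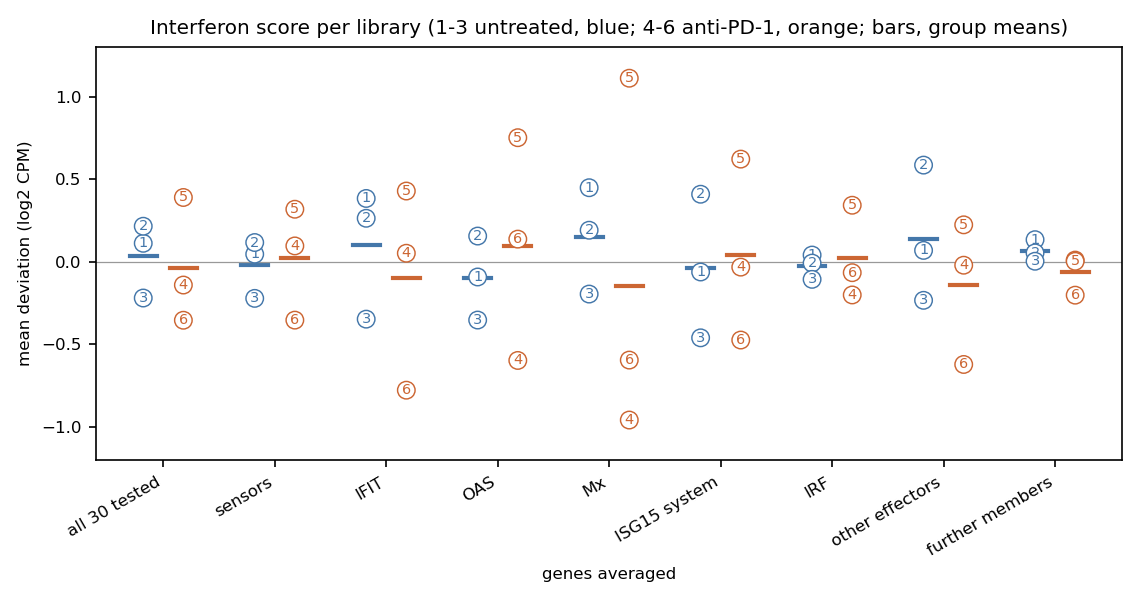
Score of each library (numbered points) for all 30 tested members and for each role, with group means as bars, in log2 units around the mean of each gene over the 6 libraries. In the score over all members, anti-PD-1 5 (0.39) is the highest library and anti-PD-1 6 (-0.35) the lowest, and the groups overlap in each column.

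Many members shared this order of libraries. Anti-PD-1 5 was above anti-PD-1 6 in 27 of 30 members (90%), with a median ratio of 1.65, while over all tested genes the share was 50.1%. The 3 members that were not higher in anti-PD-1 5 were Xaf1, Oas1a and Ifi44. Untreated 2 was above untreated 3 in 26 of 30 members (86.7%), with a median ratio of 1.31, against 48.2% of all tested genes. Of the 30 members, 16 (53.3%) had their lowest value in anti-PD-1 6, against 13.0% of all tested genes. Highest values fell in untreated 1 and anti-PD-1 5 for 10 members each, in untreated 2 for 7, and in anti-PD-1 6 for 0. The pairs of libraries compared here were the highest and lowest of each group in the score, which averages these same members. A majority of members in that direction was therefore partly fixed by the choice of pairs. The same holds for the lowest values in anti-PD-1 6, the library with the lowest score. These genes share libraries, so the counts describe the libraries and are not replicate evidence of a treatment effect.

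The spread inside each group was set beside the difference between groups. For 23 of 30 members (76.7%) the difference of group means in log2 CPM was under 1 pooled SD, against 65.6% of all tested genes. The median SD of a member was 0.33 untreated and 0.41 after anti-PD-1, and over all tested genes it was 0.37 and 0.31. The SD was larger in the anti-PD-1 group for 20 of 30 members (66.7%) and for 42.3% of all tested genes. That difference in spread was not tested.

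**Figure D4:**
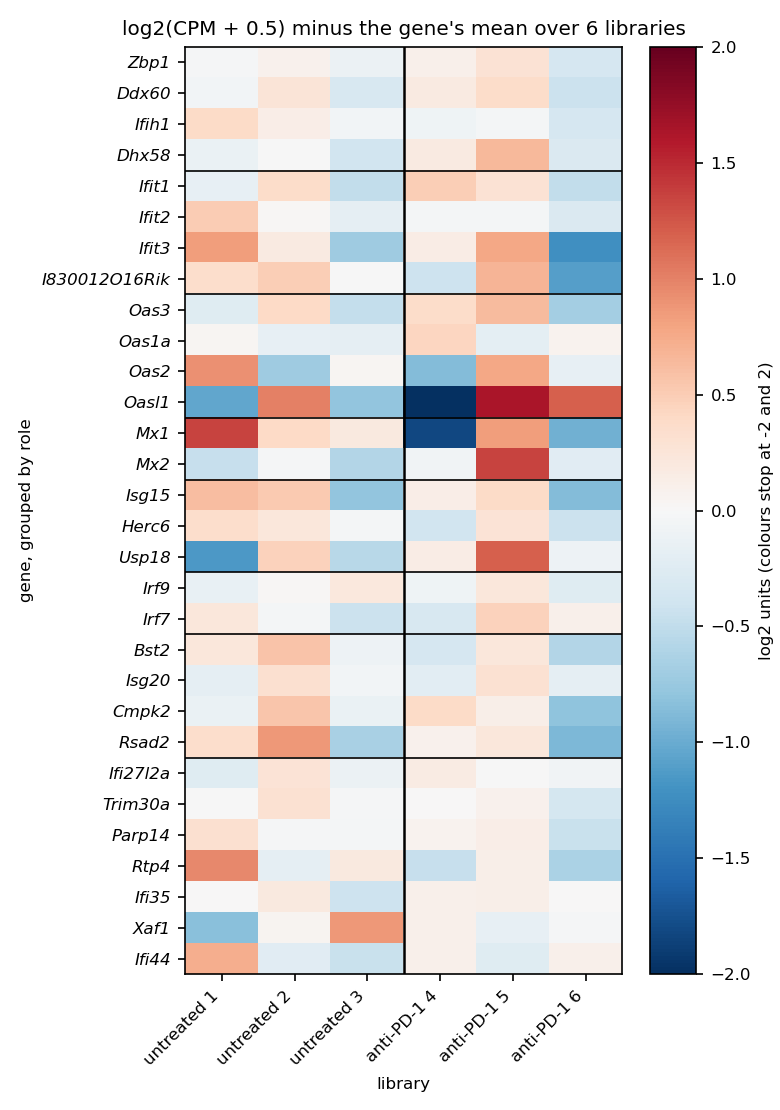
Heat map of the 30 tested members (rows, grouped by role) in the 6 libraries (columns), with the colour giving log2(CPM + 0.5) minus the mean of the gene over the libraries (the scores use a prior count of 2 instead). The column of anti-PD-1 5 is mostly red and that of anti-PD-1 6 mostly blue, and no row separates the columns on both sides of the black line.

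Other measures of the 2 libraries with the extreme scores were set beside them. Anti-PD-1 6, the lowest in score, had the largest Rn45s share (25.1%, against 21.4% to 22.3% in the others), the most genes detected (13155, against 11653 to 12608) and the lowest summed share of the 7 Treg markers (0.552%, against 0.596% to 0.675%). The sum rested mainly on Ikzf2, Ctla4 and Il2ra (means of 1987, 1482 and 1241 of 6320 CPM). In anti-PD-1 6 these and Tnfrsf18 lay below each untreated library, and Cd3e lay within the untreated range. Foxp3 (462 CPM) and Cd4 (468 CPM) lay above each untreated library there. After anti-PD-1, Ctla4 and Ikzf2 were lower without overlap (6.44% of all tested genes were) and Foxp3 and Cd4 higher without overlap (7.18%). The summed share was 0.660% to 0.675% in the untreated libraries and 0.552% to 0.632% after anti-PD-1. It did not follow the score, since anti-PD-1 5 was second lowest (0.596%). Total counts did not follow the score either: anti-PD-1 5, the highest in score, had the fewest (4766533) and anti-PD-1 6 the next fewest (4836408). Anti-PD-1 5 had the highest summed share of markers for CD8 T cells (0.00518%, against 0.00103% to 0.00318%, 2 of 2 markers with counts in that library), B cells (0.00193%, against 0.000299% to 0.00119%, 4 of 5, with Pax5 at 0) and NK cells (0.00109%, against 0.000289% to 0.000927%, 3 of 5, with Ncr1 and Klra8 at 0). Of the NK cell markers only Klre1 (15 counts) was highest in that library. Endothelial markers were highest there too (0.0125%, against 0.00664% to 0.00899%), although Pecam1 was the only 1 of the 5 with counts in that library. The other lists of markers were highest elsewhere. Macrophage and monocyte markers were highest in anti-PD-1 4 (0.00159%, against 0.00128% in anti-PD-1 5). Conventional dendritic cell markers were highest in untreated 1 (0.00153%, against 0.00109% in anti-PD-1 5), where Zbtb46 had 101 counts, Itgax 1 and the others 0. Untreated 2 was highest for neutrophil markers (0.00188%, against 0.000273% in anti-PD-1 5) and for tumor cell and fibroblast markers (0.213%, against 0.155%). The neutrophil value there was Ltf (102 counts) and 1 count of Ngp, with S100a9, Csf3r, Retnlg, Mmp8 and Camp at 0 in all libraries. Most of the tumor cell and fibroblast list was Vim and Thy1 (means of 1401 and 292 of 1737 CPM), with Dcn at 0. Plasmacytoid dendritic cells are major producers of type I interferon, and their defining marker Siglech had 0 counts in each untreated library and 23, 26 and 8 counts in anti-PD-1 4, 5 and 6. The summed share of their 7 markers, which include the member Bst2 and have Ly6d at 0, ran from 0.00683% to 0.0101% untreated and from 0.00586% to 0.00726% after anti-PD-1. Their tested markers did not follow Siglech as a set. Log2 fold changes were -0.57 for Irf8, -0.46 for Bst2, -0.13 for Tcf4 and 0.21 for Ccr9. The part of depth, RNA composition and other cells in the score was not tested.

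Of the 4 sensors of foreign nucleic acid, 3 had log2 fold changes above 0 and none passed. Zbp1 was at 99.0, 107 and 93.0 CPM untreated and at 108, 124 and 79.5 CPM after anti-PD-1, a log2 fold change of 0.06 ± 0.19 (SE). Its highest and lowest libraries were anti-PD-1 5 and 6. Ifih1 (MDA5, a sensor of long double-stranded RNA), whose single upstream core is shown above, was at 113, 94.2 and 82.8 CPM untreated and at 81.3, 83.4 and 67.9 CPM after anti-PD-1. The groups met only at untreated 3, and the log2 fold change was -0.32 ± 0.20 (SE, adjusted p = 0.706). Ddx60, a helicase gene that aids RNA sensing, was at 95.1, 117 and 78.4 CPM untreated and 112, 128 and 72.7 CPM after anti-PD-1 (log2 fold change 0.10). Dhx58 (LGP2), a regulator of the RNA sensors, was highest in anti-PD-1 5 at 27.8 CPM and ran from 13.4 to 19.9 CPM elsewhere (log2 fold change 0.40). The score of the 4 sensors differed by 0.04 between groups, with a pooled SD of 0.27.

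IFIT proteins bind viral RNA and block its translation, and the 4 genes measured sit together on chromosome 19. Ifit1 was at 57.9, 84.2 and 46.1 CPM untreated and 92.1, 79.6 and 46.5 CPM after anti-PD-1, with a low library in each group (untreated 3 and anti-PD-1 6). Ifit3 was at 35.8, 22.6 and 12 CPM untreated and at 22.2, 34.2 and 8.26 CPM after anti-PD-1, so that anti-PD-1 5 held 4.14 times the level of anti-PD-1 6. I830012O16Rik was at 17.8, 19.5 and 13.7 CPM untreated and at 10.3, 22.4 and 6.19 CPM after anti-PD-1. It showed the same high and low libraries in the treated group, with a ratio of 3.62, and the copies share sequence as stated above. Ifit2, whose windows held no core match, varied least of the 4, from 38.6 to 67.1 CPM, with a log2 fold change of -0.26 ± 0.25 (SE). The other log2 fold changes were 0.22 ± 0.25 (Ifit1), -0.13 ± 0.42 (Ifit3) and -0.40 ± 0.43 (I830012O16Rik). Without anti-PD-1 5, Ifit3 was at -0.61.

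OAS enzymes make a second messenger that activates the ribonuclease RNase L. Oas3, the most abundant of the family here, was at 36.6, 57.1 and 30.9 CPM untreated and 55.9, 67.4 and 26.8 CPM after anti-PD-1. The treated libraries thus spanned the untreated ones, and the log2 fold change was 0.28 ± 0.30 (SE). Oas1a ran from 9.33 to 14.6 CPM with its lowest value in anti-PD-1 5, against the order of most members. Of its 50-base words 57.6% occur in Oas1g as well, so its separate count is uncertain. Oas2 was at 10.9, 3.22 and 5.75 CPM untreated and 2.85, 9.96 and 4.96 CPM after anti-PD-1, with 1 library standing above the rest in each group. The OAS-like genes were close to the floor. Oasl1 had 3, 20 and 4 counts untreated and 0, 28 and 20 counts after anti-PD-1, so its log2 fold change of 1.07 ± 0.98 (SE) depends on the prior count. Oasl2, which encodes a ubiquitin-like OAS protein, had 49 counts in all and was not tested.

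The 2 Mx genes, of a family of dynamin-like GTPases that includes antiviral proteins, had opposite signs. Mx1 (chr16:97447035-97462906, mm10), defective through a deletion in many inbred laboratory strains, was at 29.5, 15.04 and 13.0 CPM untreated and at 2.85, 20.5 and 5.58 CPM after anti-PD-1. Anti-PD-1 4 and 6 lay below the untreated group, and anti-PD-1 5 lay inside it. The log2 fold change was -1.03 ± 0.51 (SE), with a 95% interval of -2.09 to 0.03 and an adjusted p of 0.608, and it was -2.21 without anti-PD-1 5 and -0.56 without untreated 1. Mx2, next to it on chromosome 16, was at 4.65, 6.45 and 4.23 CPM untreated and at 6.27, 17.6 and 5.58 CPM after anti-PD-1. Its treated mean rested on anti-PD-1 5: the log2 fold change of 0.93 ± 0.57 (SE) became 0.22 without that library.

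The ISG15 system attaches a ubiquitin-like protein to other proteins. Isg15, the modifier itself, with 3 overlapping cores in the stretch shown above, was at 21.8, 20.4 and 7.94 CPM untreated and at 15.4, 18.5 and 7.43 CPM after anti-PD-1. Each group held 1 library at less than 8 CPM. Herc6, the mouse ligase for ISG15, was at 98.2, 89.5 and 74.7 CPM untreated and 58.5, 92.3 and 56.4 CPM after anti-PD-1. Its log2 fold change was -0.35 ± 0.22 (SE) and it became -0.61 without anti-PD-1 5. Usp18, which removes ISG15 and dampens IFNAR signalling, was at 5.62, 18.3 and 8.79 CPM untreated and at 14.6, 30.7 and 12.2 CPM after anti-PD-1. The log2 fold change was 0.83 ± 0.46 (SE, adjusted p = 0.660), and without anti-PD-1 5 it was 0.33.

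The 2 interferon regulatory factors varied little between groups. Irf9, the DNA-binding subunit of ISGF3, was at 64.5, 73.1 and 83.2 CPM untreated and 67.6, 83.6 and 60.7 CPM after anti-PD-1 (log2 fold change -0.06 ± 0.21, SE). Irf7, the factor that amplifies interferon alpha production, was at 52.8, 43.5 and 33.3 CPM untreated and 35.9, 62.0 and 48.3 CPM after anti-PD-1 (0.16 ± 0.26, SE). Irf9 was highest in anti-PD-1 5 and lowest in anti-PD-1 6, whereas Irf7 was lowest in untreated 3.

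Among effectors at membranes and on nucleotides, all 4 tested genes had log2 fold changes below 0 and none passed. Bst2, which encodes tetherin, a protein that holds budding virus at the cell surface, was at 24.5, 31.2 and 19.4 CPM untreated and at 16.3, 24.5 and 13.6 CPM after anti-PD-1 (-0.46 ± 0.34, SE). Its 2 lowest libraries were anti-PD-1 4 and 6, and anti-PD-1 5 lay at the level of untreated 1. Rsad2 (viperin, which makes a chain-terminating nucleotide) was at 28.6, 41.2 and 14.0 CPM untreated and at 23.7, 26.1 and 11.8 CPM after anti-PD-1 (-0.43 ± 0.38, SE). Cmpk2, the nucleotide kinase gene beside Rsad2 on chromosome 12, was highest in untreated 2 (31.5 CPM) and lowest in anti-PD-1 6 (11.98 CPM), as Rsad2 was. Isg20, an RNA exonuclease gene, ran from 24.9 to 36.4 CPM with a log2 fold change of -0.05 ± 0.29 (SE).

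The other 6 members share no single role, and none passed. Ifi27l2a, the most abundant per length, was at 70.6, 101 and 76.7 CPM untreated and 94.2, 83.6 and 79.7 CPM after anti-PD-1. Trim30a was at 232, 287 and 227 CPM untreated and at 232, 245 and 181 CPM after anti-PD-1, a log2 fold change of -0.18 ± 0.16 (SE). Parp14 was at 378, 296 and 296 CPM untreated and at 316, 330.4 and 221 CPM after anti-PD-1, a log2 fold change of -0.16 ± 0.17 (SE). For these abundant genes the 95% intervals were the narrowest of the list, -0.52 to 0.16 for Trim30a and -0.51 to 0.19 for Parp14. Ifi35 ran from 15.7 to 24.2 CPM, Xaf1, a pro-apoptotic gene, from 8.66 to 29.6 CPM with both extremes in the untreated group, and Ifi44 from 9.46 to 22.0 CPM with both extremes there as well.

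The summaries turned sign with single libraries. The median log2 fold change of the tested members, -0.13 with all libraries, was -0.20 without anti-PD-1 5 and 0.04 without anti-PD-1 6. The difference in score was -0.28 without anti-PD-1 5, 0.09 without anti-PD-1 6 and 0.02 without untreated 2. In the 14 alternative fits no member with an adjusted p passed, and the smallest was 0.402. DESeq2, 1 of those fits, gave an adjusted p to 13 of the 30. The sign of the log2 fold change held in each of those fits for 16 members and turned in at least 1 for 14.

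**Figure D5:**
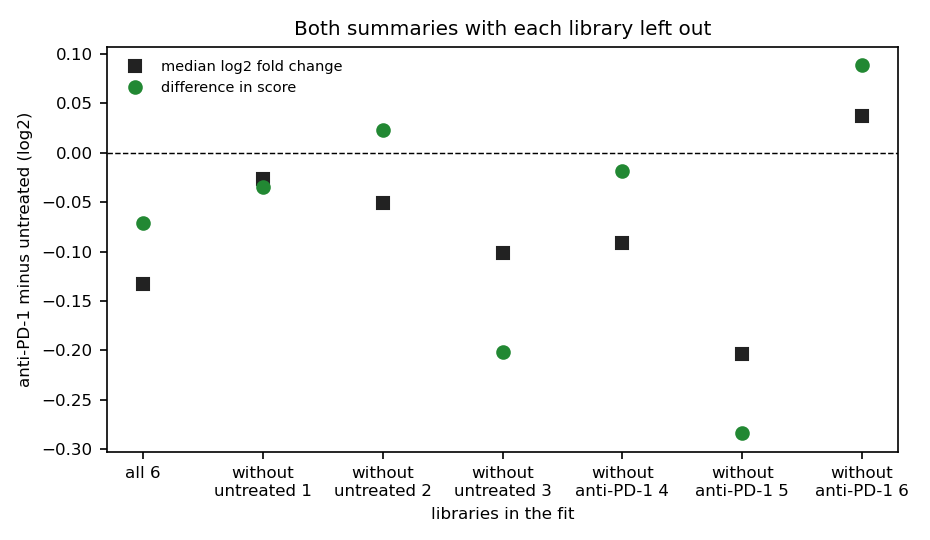
Median log2 fold change of the tested members (squares) and difference in score (circles), anti-PD-1 minus untreated, with all 6 libraries and with each left out. Both are highest without anti-PD-1 6 (0.04 and 0.09) and lowest without anti-PD-1 5 (-0.20 and -0.28).

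Upstream of these genes, interferon transcripts themselves were hardly seen in the sorted cells. Of 19 interferon genes in the table, 17 had 0 counts in all libraries, Ifnb1 and every listed interferon alpha gene among them, which over 32804890 counts allows a level of up to 0.0914 CPM (3 counts, counting error only). Ifnz had 1 count. Ifng, the type II interferon that activated T cells make, was at 23.9, 17.4 and 21.6 CPM untreated and 12.7, 20.9 and 11.8 CPM after anti-PD-1 (log2 fold change -0.48 ± 0.36, SE). As in many members, anti-PD-1 5 was the highest of the treated libraries.

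Receptor and signalling genes were well expressed, and 0 of 9 passed in either direction (median log2 fold change 0.04). Ifnar1 was at 215, 174 and 167 CPM untreated and 179.7, 228 and 183 CPM after anti-PD-1, and its log2 fold change was 0.08 ± 0.17 (SE). Ifnar2 was at 53.6, 67.7 and 63.2 CPM untreated and 43.3, 61.2 and 42.5 CPM after anti-PD-1 (-0.33 ± 0.23, SE). Of the kinases, Jak1 was at -0.01 ± 0.13, Tyk2 at 0.17 ± 0.23 and Jak2 at -0.27 ± 0.18 (log2 fold change ± SE). Stat2, a subunit of ISGF3, was at 64.2, 51.4 and 56.3 CPM untreated and 65.5, 73.4 and 55.3 CPM after anti-PD-1, with its highest value in anti-PD-1 5. Its log2 fold change was 0.17 ± 0.22 (SE). Ifngr2, a subunit of the interferon gamma receptor, was at 0.71 ± 0.48 with its highest value in anti-PD-1 6.

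Of 11 negative regulators of the pathway 0 passed (median log2 fold change 0.13), with 1 higher and 1 lower at an unadjusted p under 0.05 (9.09% each, against 4.23% and 4.07% of all tested genes). Socs3, a STAT-induced inhibitor of cytokine receptors, was at 72.7, 63.0 and 63.4 CPM untreated and at 98.4, 102 and 189 CPM after anti-PD-1. Its groups did not overlap, and the log2 fold change was 0.96 ± 0.23 (SE, adjusted p = 0.161). Ptpn6 (the phosphatase SHP-1) was at -0.60 ± 0.23 with no overlap, Ptpn11 (SHP-2) at 0.36 ± 0.21 with no overlap, and Socs1 at 0.47 ± 0.30 (log2 fold change ± SE). Of the 11 genes, 2 were higher without overlap, against 7.18% of all tested genes. In the other direction 1 was lower without overlap (9.09%, against 6.44%). Usp18, the negative regulator among the members, is given above.

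Genes of nucleic acid sensing gave 0 calls among 23 tested (median log2 fold change 0.04), with 1 higher at an unadjusted p under 0.05, against 4.23% of all tested genes. That gene was Tlr7, a receptor for single-stranded RNA, at 0.321, 4.30 and 2.03 CPM untreated and at 18.6, 9.33 and 13.0 CPM after anti-PD-1. The groups did not overlap, and the log2 fold change was 2.67 ± 0.64 (SE, adjusted p = 0.161). Irf3 was at 0.70 ± 0.37 (no overlap), the kinase gene Tbk1 at -0.41 ± 0.22 and Ifi204, of a family of DNA sensors, at -0.50 ± 0.29 (log2 fold change ± SE). Of the 23 genes, 2 were higher and 0 lower without overlap, against 7.18% and 6.44% of all tested genes.

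Of further interferon-stimulated genes outside the 31, 0 of 49 tested passed, and 28 had log2 fold changes below 0 (57.1%, against 49.9% of all tested genes), with a median of -0.09. At an unadjusted p under 0.05, 0 were higher and 5 were lower (10.2%, against 4.07% of all tested genes). Epsti1 was at 102, 98.3 and 93.0 CPM untreated and at 53.0, 79.4 and 59.3 CPM after anti-PD-1, with no overlap (log2 fold change -0.62 ± 0.20, SE, adjusted p = 0.448). Trim12c was at -0.55 ± 0.22, Trim21, an intracellular antibody receptor gene, at -0.72 ± 0.31 with no overlap, and Ly6a at -0.45 ± 0.20 (log2 fold change ± SE). Anti-PD-1 5 was the highest treated library for all 4 genes. Of the 49 tested, 2 were lower without overlap (4.08%, against 6.44% of all tested genes). Another 3 were higher without overlap, against 7.18% of all tested genes. The score of these 49 genes was -0.09, 0.10 and 0.03 in untreated 1, 2 and 3 and 0.05, 0.06 and -0.16 in anti-PD-1 4, 5 and 6, so anti-PD-1 6 was again the lowest.

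Genes led by interferon gamma gave 0 calls of 25 tested, with 19 log2 fold changes below 0 (76%, against 49.9% of all tested genes) and a median of -0.14. At an unadjusted p under 0.05, 5 were lower (20%, against 4.07% of all tested genes). Gbp5, a guanylate-binding GTPase gene, was at 218, 168 and 169.9 CPM untreated and at 117, 97.7 and 143 CPM after anti-PD-1, with no overlap and with anti-PD-1 5 lowest (log2 fold change -0.64 ± 0.18, SE, adjusted p = 0.366). The GTPase genes Iigp1 (-0.53 ± 0.22), Gbp10 (-0.50 ± 0.21) and Gbp6 (-0.50 ± 0.21) overlapped between groups through anti-PD-1 5 (log2 fold change ± SE). Irf8, also on the plasmacytoid dendritic cell list, was among the 3 genes of this list with lower values and no overlap (12%, against 6.44% of all tested genes). The score of the list was -0.04, 0.17 and 0.09 untreated and -0.15, 0.11 and -0.19 after anti-PD-1, a difference of -0.15 with a pooled SD of 0.14.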

How the data were processed

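The authors deposited raw fragment counts for each gene, made with featureCounts 1.5.2 (paired fragments, strand setting 1) on the UCSC mm10 annotation, per the file headers. Exon lengths come from the same deposited table. FastQC, bcl2fastq and DESeq2 appear in the submitters' processing notes as well. How reads were filtered and duplicates handled is not given in the sources used here. A further 1 unnamed column was not used.

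Counts were scaled by TMM (factors 0.934 to 1.02), filtered with filterByExpr (minimum count 10, minimum total 15) and tested with edgeR 4.0.16 in R 4.3.3 (glmQLFit with robust = TRUE and legacy = FALSE, then glmQLFTest, two-sided, no covariates), adjusted by Benjamini-Hochberg at 0.05. Tested genes hold 99.8% of counts. The design named this test without the legacy setting. Several settings of the fit were run before legacy = FALSE was taken, to follow earlier processing of these counts, so it was chosen after results had been seen. The older fit, added as an alternative, also called 3 genes and 0 members. Scores use log2 CPM with a prior count of 2. DESeq2 1.42.0 and limma 3.58.1 gave alternatives. The calculation was tested on simulated data.

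Libraries were grouped by their titles. Chi-square per degree of freedom between libraries was 9.71 or more, so no library was a repeat of another. All 31 members were named. From each pathway list the 4 tested genes with the smallest p were named, with Ifnar1, Ifnar2, Jak1, Tyk2 and Stat2; 1 gene that this rule names is not reported here. Promoters were chosen by smallest p and by highest CPM among those with a core. The members and all lists were chosen with earlier results of these data known. The 95% intervals of fold changes come from the edgeR fit and include variation between libraries, while floors cover counting error only.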

Additional observations from a re-analysis of the deposited data

How the results depend on the processing

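No paired analysis was possible because the libraries are numbered 1 to 3 in one group and 4 to 6 in the other, so the groups share no number. The count of members called was 0 in all 14 alternative fits, but DESeq2 gave an adjusted p to only 13 of the 30 members. The count over all genes, 3 by edgeR, was 34 with DESeq2, 12 with limma-voom and quality weights, 7 with library totals as the scale and 52 with no filter on low counts. With 1 library left out it ran from 1 (without anti-PD-1 5) to 19 (without untreated 1). The median log2 fold change of the tested members ran from -0.20 (without anti-PD-1 5) to 0.0374 (without anti-PD-1 6), and the difference in score from -0.284 to 0.0882 for the same libraries. The score difference was also above 0 without untreated 2 (0.0229) and stayed below 0 in the 7 alternatives of summary, member choice, scaling and prior count.

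With limma-voom and quality weights the sign turned for Ifit3 (0.0386), Ifi44 (0.212), Oas2 (0.0251) and Oasl1 (-0.0724). With 1 library left out, log2 fold changes took both signs for 13 members. Their ranges were -0.0444 to 0.228 (Ifi27l2a), -0.0794 to 0.219 (Zbp1), -0.194 to 0.0374 (Irf9), -0.24 to 0.12 (Isg20), -0.0450 to 0.348 (Irf7), -0.619 to 0.0109 (Isg15) and -0.0664 to 0.304 (Ddx60). For the others they were -0.0276 to 0.270 (Ifi35), -0.61 to 0.33 (Ifit3), -0.41 to 0.13 (Cmpk2), -0.57 to 0.33 (Xaf1), -0.36 to 0.35 (Ifi44) and -0.80 to 0.37 (Oas2). The cause was not tested. With the further A on the core, 11 of 22 genes matched instead of 12. Depth limits Oasl1 (75 counts in all), Oasl2 (49), Oas2 (207) and Mx2 (235) most among the members.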
